A study of Mus musculus with 6 samples.

Results

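Arterial endothelial cells were examined in mouse quadriceps 7 days after volumetric muscle loss, a surgical removal of a block of muscle. A cell barcode was taken as arterial if it had at least 500 gene UMIs (unique molecular identifiers, 1 per captured transcript) and at least 2 UMIs of the endothelial genes Pecam1, Cdh5, Egfl7 and Cldn5 together. It also had to have at most 2 UMIs of the macrophage genes C1qa, C1qb and Tyrobp, and at least 2 of the arterial genes Gja5, Hey1, Sema3g and Stmn2. This gave 545 arterial cells among 2587 endothelial cells and 8258 barcodes of that depth. They came to 117 in the critical library, 92 in the subcritical library and 336 in the uninjured library, and the other 2042 endothelial cells numbered 554, 493 and 995.

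The study used male wild-type C57BL/6 mice aged 2 to 3 months, and took the left quadriceps. The critical group had a defect of 3 mm, the subcritical group a defect of 2 mm, and the third group no injury. The 4 animals of a group each received a hashtag antibody, and their cells were pooled, stained with barcoded antibodies to surface proteins and run as 1 droplet library. Group, pool, staining tube and library therefore cannot be told apart, and comparisons over whole libraries have no replicate and no test.

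Endothelial cells of arteries and arterioles line the vessels that carry blood into the capillary bed. Notch signalling through the ligands Dll4 and Jag1 and transcription factors of the Sox and Hey families maintain their identity, and connexins join them into a sheet that conducts signals along the vessel wall. In muscle they set vascular tone by releasing vasoactive factors in response to flow, and arteries remodel and capillaries sprout from existing vessels when tissue is rebuilt.

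The libraries held 3161, 3071 and 2195 barcodes and 7138662, 4954129 and 5681346 gene UMIs in the critical, subcritical and uninjured groups. Arterial cells contributed 240895, 140057 and 950381 of these UMIs, with a median per cell of 1438, 1260 and 2332.5. Other endothelial cells were shallower, with medians of 1146.5, 1030 and 1486 UMIs, and a threshold of 2 UMIs is passed more easily by a deeper cell. Between 10 and 16 barcodes were shared by each pair of libraries, and none of these was arterial in both. Some arterial cells also carried transcripts of another cell type. At least 2 UMIs of mural genes (those of smooth muscle cells and pericytes) were found in 20, 15 and 49 arterial cells (17.1%, 16.3% and 14.6%). At least 5 UMIs of fibroblast genes were found in 5, 2 and 1 arterial cells, which held 88.4%, 68.5% and 17.4% of all fibroblast-gene UMIs in the class.

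The gate genes chose the cells, so their levels are a description and were not tested. Stmn2, a regulator of microtubules best known from neurons, had at least 1 UMI in 87.2%, 88.0% and 85.1% of critical, subcritical and uninjured arterial cells, against 10.3%, 10.8% and 9.95% of other endothelial cells. Sema3g, a secreted semaphorin, was found in 44.4%, 34.8% and 58.3% of arterial cells, against 2.53%, 1.62% and 2.51% of the others. Hey1, a transcription factor switched on by Notch, was found in 43.6%, 38.0% and 61.0% of them, against 3.97%, 4.06% and 3.22%. Gja5, which encodes connexin 40, was found in 28.2%, 14.1% and 36.6%, against 0.903%, 0.811% and 0.302%. The share of cells with each of the 3 classical arterial genes was lower in both injured libraries than in the uninjured one, and that of Stmn2 was not. Detection rises with depth, and uninjured arterial cells were the deepest (median 2332.5 UMIs, against 1438 in critical and 1260 in subcritical cells). The gate also used these genes, so no conclusion is drawn from their order between libraries. As counts scaled to a common total of gene UMIs (CPM, used for levels throughout), Sema3g stood at 399, 357 and 522, Hey1 at 345, 393 and 464, Gja5 at 199, 114 and 241, and Stmn2 at 1303, 1599 and 1195.

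Many cells stood close to the threshold. A sum of exactly 2 arterial UMIs was found in 38, 33 and 70 arterial cells, and a sum of exactly 1, just outside, in 98, 85 and 159 other endothelial cells. Sums of 6 or more were found in 26, 12 and 148 cells. All 4 arterial genes were detected in 12, 1 and 64 cells, which were 10.3%, 1.09% and 19.0% of the class. In contrast, 34, 34 and 57 cells (29.1%, 37.0% and 16.96%) passed on Stmn2 alone.

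Genes outside the gate differed between these subsets. Gja4, which encodes connexin 37, stood at 720, 545 and 400 CPM in the critical, subcritical and uninjured arterial cells with Gja5, Hey1 or Sema3g. In cells that passed on Stmn2 alone it stood at 167, 193 and 51.1 CPM, and in endothelial cells with no arterial UMI at 24.7, 29.7 and 26.1 CPM. Nr2f2, the transcription factor that specifies veins, stood at 22.8, 21.4 and 12.3 CPM with Gja5, Hey1 or Sema3g, at 60.8, 21.5 and 139 CPM on Stmn2 alone, and at 96.2, 87.1 and 69.1 CPM with no arterial UMI. Aqp1, a water channel abundant in capillaries, followed with 240, 267 and 636 CPM, 1307, 430 and 2694 CPM, and 1750, 1930 and 5399 CPM in the same order. In Gja4 and Aqp1 the cells that passed on Stmn2 alone thus lay between the rest of the class and cells with no arterial UMI. Their Nr2f2 level was above that of cells with no arterial UMI in the uninjured library. In the subcritical library these subsets held 46526 (Stmn2 alone) and 93531 gene UMIs, so 21.5 and 21.4 CPM of Nr2f2 rest on very few counts. The critical values of 60.8 and 22.8 CPM, over 65806 and 175089 gene UMIs, rest on few counts too. No order of Nr2f2 is read from these 2 libraries. Other arterial genes outside the gate did not all lie between, among them Slc6a6, Eln and Dll4 in the critical library. The label was borne out by its markers for the cells with Gja5, Hey1 or Sema3g and only in part for the 125 cells chosen by Stmn2 alone.

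**Figure D1:**
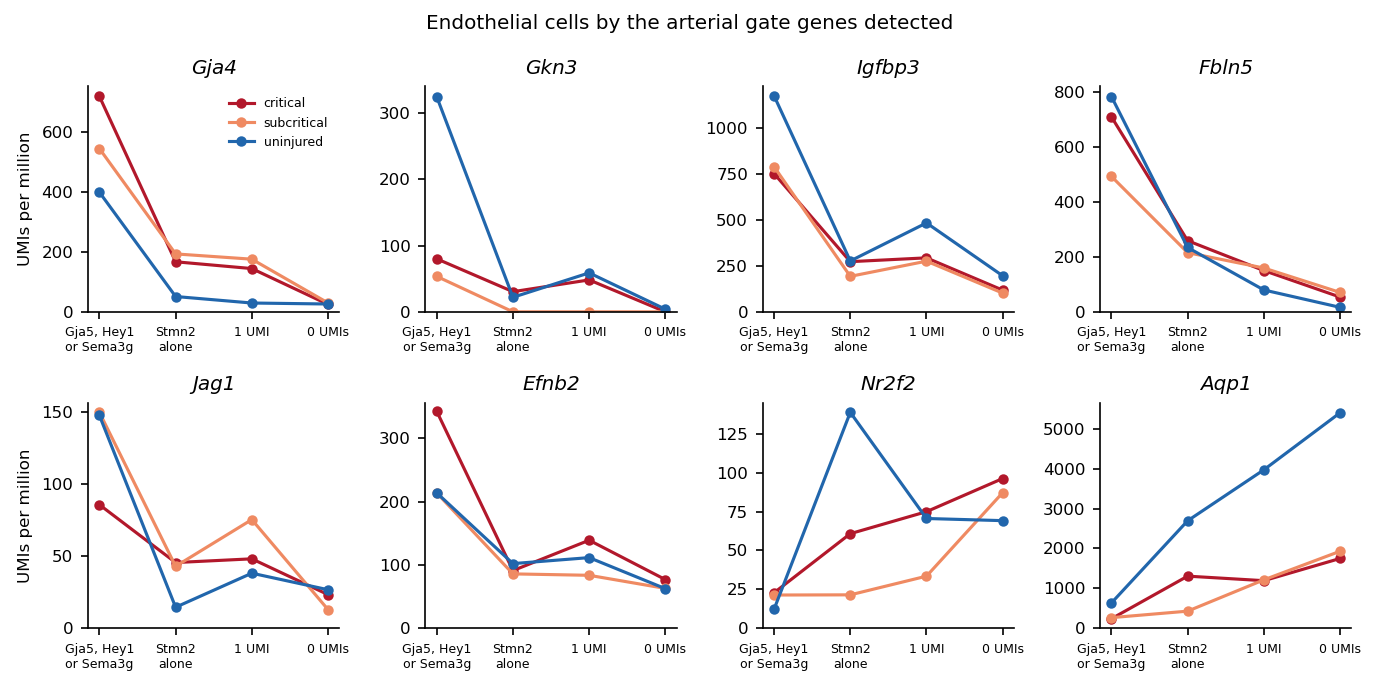
Levels of 8 genes outside the gate (CPM, linear axis from 0) in arterial cells with Gja5, Hey1 or Sema3g, in arterial cells that passed on Stmn2 alone, and in endothelial cells with an arterial sum of 1 or 0 UMIs, with 1 point and line colour per library. Gja4 is highest in the first subset of each library (720, 545 and 400 CPM in critical, subcritical and uninjured cells) and lowest in cells with a sum of 0 (24.7, 29.7 and 26.1 CPM).

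Arterial cells made up 17.4% of endothelial cells in the critical library (95% Clopper-Pearson interval 14.6% to 20.5%), 15.7% in the subcritical library (12.9% to 18.9%) and 25.2% in the uninjured library (22.9% to 27.7%). The intervals of the injured libraries lay under that of the uninjured one, and the critical and subcritical intervals overlapped. These intervals cover counting error only. Uninjured arterial cells were also the deepest. With each cell thinned to 1000 UMIs the shares were 15.1% in the critical library (11.6% to 19.0%), 12.3% in the subcritical library (8.79% to 16.7%) and 19.0% in the uninjured library (16.6% to 21.6%), so at matched depth the order stood but both injured intervals overlapped the uninjured one. This left out 26, 35 and 33 arterial cells under that depth. Without the cells that passed on Stmn2 alone they were 13.0%, 10.5% and 21.9%. Of all barcodes of at least 500 UMIs, 3.70%, 3.17% and 15.3% were arterial, and 21.2%, 20.2% and 60.6% were endothelial.

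**Figure D2:**
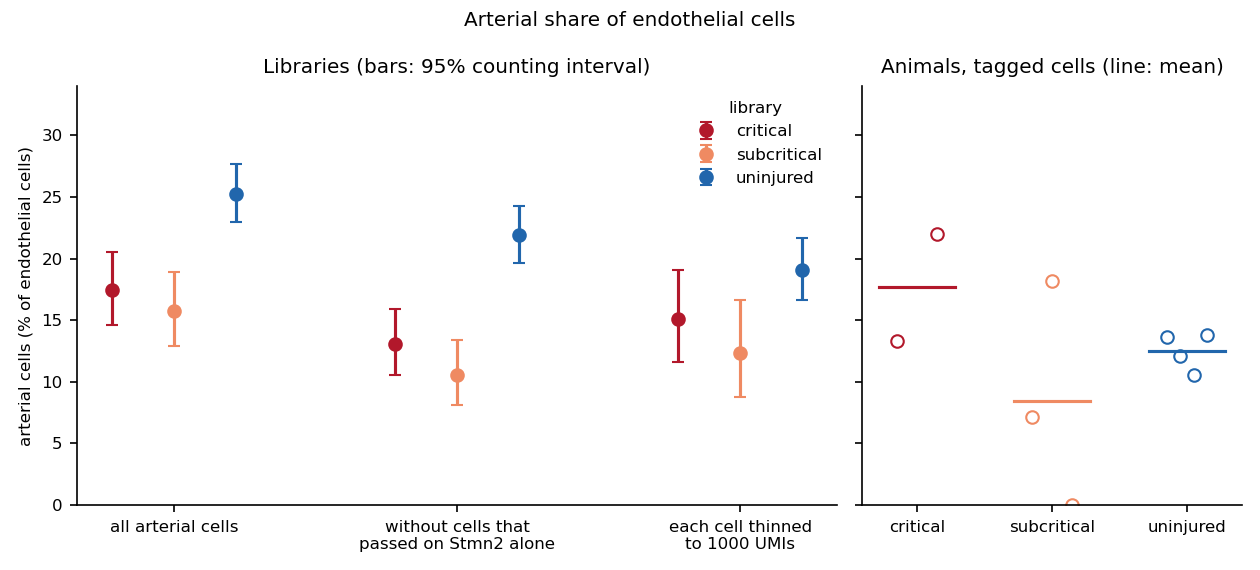
Share of endothelial cells that were arterial (percent). In the panel by library, points are the critical, subcritical and uninjured libraries with 95% Clopper-Pearson intervals for all arterial cells (17.4%, 15.7% and 25.2%), without cells that passed on Stmn2 alone, and with each cell thinned to 1000 UMIs; in the panel by animal each circle is 1 animal with at least 10 hashtagged endothelial cells and the line is the group mean, and the groups overlap.

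Animals told apart by hashtag did not show the same order. Critical animals with at least 10 tagged endothelial cells had 13.3% (6 of 45) and 22% (11 of 50) arterial cells. Subcritical animals had 7.14% (1 of 14), 18.2% (10 of 55) and 0% (0 of 29), and uninjured animals 13.6% (3 of 22), 12.1% (37 of 305), 10.5% (10 of 95) and 13.8% (16 of 116). The ranges of the 3 groups overlapped, and the critical animal with 22% was the highest. The mean was 17.7% ± 6.13 in critical animals (SD, n = 2) and 12.5% ± 1.53 in uninjured animals (SD, n = 4), a difference of 5.14 percentage points (exact two-sided permutation p = 0.2, smallest possible 0.0667). It was 8.44% ± 9.16 in subcritical animals (SD, n = 3), which was 4.08 percentage points under uninjured animals (exact permutation p = 0.429, smallest possible 0.0286). The critical and subcritical means differed by 9.23 percentage points (exact permutation p = 0.3, smallest possible 0.1), and all 3 adjusted p-values were 0.429. The critical minus uninjured difference depended on the gate: it was 0.185 percentage points with at least 3 arterial UMIs (exact permutation p = 0.867) and 11.4 with at least 1000 gene UMIs a cell (exact permutation p = 0.0667, the smallest possible). Tags were called in 15.4%, 11.96% and 19.6% of critical, subcritical and uninjured arterial cells, against 15.9%, 18.5% and 47.4% of other endothelial cells. Tagging thus differed between the classes within the uninjured library, and shares of tagged cells are lower there than the share of all cells.

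Arterial cells were next set against the other endothelial cells of the same libraries, with the library as block, using edgeR's quasi-likelihood test on UMI sums (Benjamini-Hochberg adjusted p under 0.05 over 7994 genes, gate genes left out). Of these, 360 genes were higher (4.5%) and 250 lower (3.13%) in arterial cells, 7.63% in either direction. The highest fold was that of Tmem100, a membrane protein induced by the BMP receptor Alk1. Its level was 120, 92.8 and 91.5 CPM in critical, subcritical and uninjured arterial cells, against 4.37, 9.11 and 1.07 CPM in the other endothelial cells of each library (log2 fold 4.79, SE 0.37, adjusted p = 3.06e-09). The highest and lowest folds were named among called genes with the same direction in all 3 libraries, so that agreement is no further support.

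The list of arterial identity genes outside the gate had 28 members higher and 1 lower of 39 tested, with a median log2 fold of 1.55, against a median over all genes of -0.02. The list was chosen with earlier results of these data known. Gja4 stood at 569, 428 and 349 CPM in arterial cells and at 49.2, 56.2 and 26.7 CPM in other endothelial cells (log2 fold 3.44, SE 0.17, adjusted p = 1.32e-12). Bmx, a kinase found in arterial endothelium, stood at 33.2, 42.8 and 80.0 CPM and at 1.09, 6.07 and 6.41 CPM in the others (log2 fold 3.59, SE 0.37, adjusted p = 2.07e-07). Alpl, an alkaline phosphatase, stood at 149, 221 and 476 CPM and at 25.2, 12.1 and 34.2 CPM in the others (log2 fold 3.56, SE 0.22). Of the transcription factors of the list, Sox17 (log2 fold 1.45, SE 0.14) and Mecom (1.81, SE 0.17) were higher. Igfbp3, a binding protein of insulin-like growth factors, had a log2 fold of 2.07 (SE 0.12), and Gkn3, a gastrokine, 4.07 (SE 0.29). The lower member was Aqp1, with 531, 321 and 932 CPM in arterial cells and 1636, 1800 and 5139 CPM in other endothelial cells (log2 fold -2.19, SE 0.15, adjusted p = 9.25e-07). Some listed genes with high folds did not pass the test: Fbln5, a protein of elastic fibres, had a log2 fold of 3.42 (adjusted p = 0.198), and Rbp7, a retinol-binding protein, 2.17 (adjusted p = 0.236).

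In the Notch pathway, 6 of 17 genes were higher and 1 lower, with a median log2 fold of 0.19. The ligands Jag1 (log2 fold 1.99, SE 0.22), Dll4 (1.18, SE 0.16) and Jag2 (0.87, SE 0.18) were higher. Dll4 stood at 249, 328 and 318 CPM in critical, subcritical and uninjured arterial cells and at 103, 97.1 and 176 CPM in other endothelial cells. The receptors Notch4 (1.07, SE 0.18) and Notch1 (0.58, SE 0.15) and the feedback inhibitor Nrarp (0.50, SE 0.15) were also higher. Lfng, a glycosyltransferase that modifies Notch receptors, was lower (-1.06, SE 0.30), and the target Hes1 had a log2 fold of -0.19 (adjusted p = 0.77). Efnb2, the ephrin that arteries present to the venous receptor Ephb4, was higher (1.49, SE 0.16), while Ephb4 had a log2 fold of -0.17 (adjusted p = 0.697).

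Genes for the control of vascular tone formed another group with 7 higher and 1 lower of 17. Edn1, the precursor of the vasoconstrictor endothelin-1, stood at 104, 157 and 266 CPM in critical, subcritical and uninjured arterial cells and at 28.4, 27.3 and 32.6 CPM in other endothelial cells (log2 fold 2.67, SE 0.21, adjusted p = 3.06e-09). The channels Kcnn4 (3.24, SE 0.48) and Trpv4 (2.46, SE 0.35), which open with calcium and with stretch or flow, were higher, as was the angiotensin-converting enzyme Ace (1.55, SE 0.19). The flow-responsive factors Klf2 (0.72, SE 0.10) and Klf4 (0.62, SE 0.14) were higher too. Piezo1, a mechanically gated channel, was the lower gene (-0.51, SE 0.15), and the nitric oxide synthase Nos3 did not pass the test (0.26, adjusted p = 0.499).

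Venous, capillary and sprouting genes ran the other way. None of 16 venous genes was higher and 7 were lower, among them Nr2f2 (log2 fold -1.33, SE 0.24), the adhesion molecule Selp (-1.32, SE 0.29) and the apelin receptor Aplnr (-1.81, SE 0.16). Of 20 capillary genes, 2 were higher and 10 lower. They included Timp4, an inhibitor of matrix proteases (-0.97, SE 0.13), Rgcc, a regulator of the cell cycle (-0.89, SE 0.13), and Gpihbp1, which holds lipoprotein lipase on the capillary wall (-0.72, SE 0.09). Fabp4, which binds fatty acids, stood at 4516, 4548 and 17092 CPM in arterial cells and at 5757, 5144 and 22356 CPM in other endothelial cells, a log2 fold of only -0.31 (SE 0.07, adjusted p = 0.00472). By edgeR this call was lost without the critical library (adjusted p = 0.212), over tagged animals (adjusted p = 0.313) and without the library block. It was also lost with DESeq2 (adjusted p = 0.461). Of 17 sprouting and tip cell genes, none was higher and 10 were lower, among them the peptide Apln (-1.92, SE 0.31) and Angpt2, a destabiliser of vessels (-1.12, SE 0.32). Adm, which encodes the vasodilator adrenomedullin, stood at 0, 0 and 1.05 CPM in arterial cells and at 53.6, 41.0 and 29.9 CPM in the others (adjusted p = 3.38e-06). In lipid handling, a list that shares members with the capillary one, 7 of 17 genes were lower and none higher.

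**Figure D3:**
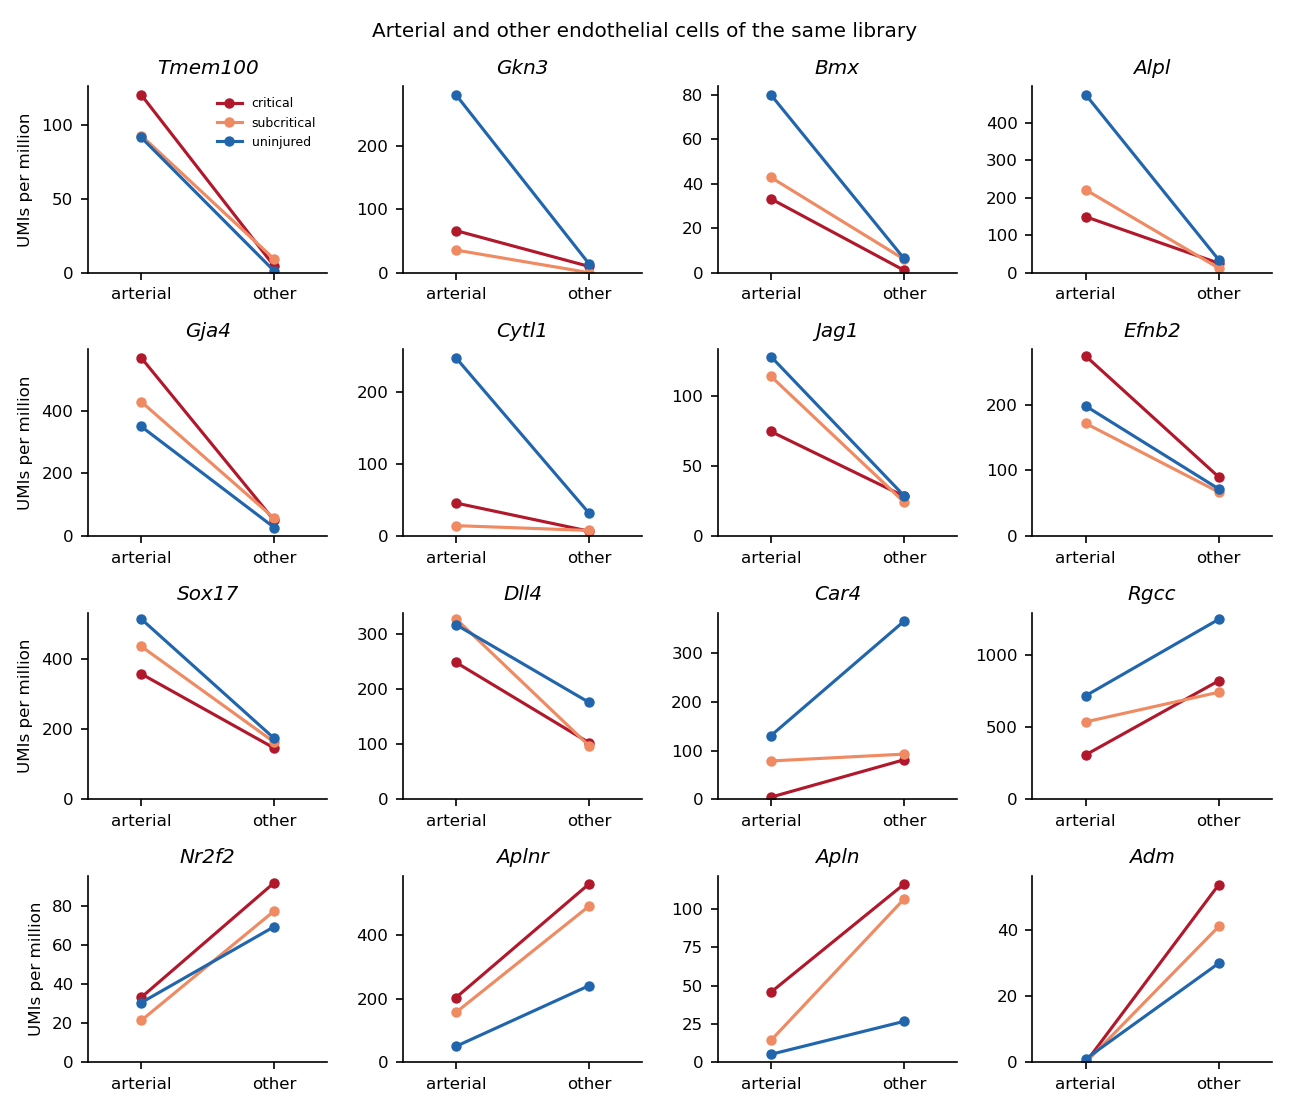
Levels of 16 genes (CPM, linear axis from 0) in arterial and in other endothelial cells, with 1 line for each of the critical, subcritical and uninjured libraries. In the first 10 panels, from Tmem100 to Dll4, the lines drop from arterial to other cells in every library, and in the last 6, from Car4 to Adm, they climb.

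Further lists differed in direction and extent. Of 24 interferon response genes, 9 were higher and none lower, among them Isg15 (log2 fold 1.0, SE 0.13) and Ifi27l2a (1.42, SE 0.28). Of 13 genes of antigen presentation, 4 were higher and none lower, led by the peptide-loading protein Tapbp (0.70, SE 0.14). In the list of VEGF, angiopoietin and TGF-beta signalling, 8 of 23 were higher and 4 lower. The inhibitory signal transducers Smad6 (2.75, SE 0.34) and Smad7 (1.13, SE 0.17), the receptor Acvrl1 (0.89, SE 0.15), the ligand Tgfb2 (2.52, SE 0.39) and the growth factor Vegfc (2.14, SE 0.22) were higher. The receptors Kdr (-0.59, SE 0.13) and Nrp2 (-1.40, SE 0.29) and the ligand Bmp6 (-1.38, SE 0.23) were lower. Elastic fibre and vessel wall genes had 4 higher and 1 lower of 19, with Ltbp4, a binding protein of latent TGF-beta (1.09, SE 0.11), and Clu, the chaperone clusterin (2.41, SE 0.19), higher. Basement membrane genes had 3 higher and 7 lower of 19: Col18a1, the collagen that yields endostatin (1.12, SE 0.16), and the laminin chain Lama3 (2.45, SE 0.26) were higher, and Col4a1 (-0.52, SE 0.10) lower. Leukocyte recruitment had 2 higher, the adhesion molecule Icam2 (0.80, SE 0.12) and the chemokine Cx3cl1 (1.67, SE 0.24), and 4 lower of 13, with Cxcl9, a chemokine induced by interferon-gamma, at -3.24 (SE 0.32). Immediate early genes had 0 higher and 2 lower of 18, hypoxia and glycolysis 1 and 1 of 16, and proliferation 0 and 1 of 18. Of genes of other cell types, 1 of 10 mural, 1 of 7 fibroblast and 1 of 5 macrophage and other immune genes were lower. Lymphatic genes had 1 higher of 4 (Ccl21a, a symbol that several rows share, which turned to lower with at least 3 arterial UMIs, -0.29, or without Stmn2 in the gate, -8.12), and none of 3 muscle genes or of 1 glial gene passed.

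Beyond the lists, the 15 highest folds included Nebl, which binds actin (log2 fold 4.23, SE 0.46), Sdcbp2, a syntenin (4.14, SE 0.59), Egfl8 (3.94, SE 0.38) and Gper1, an oestrogen receptor of the membrane (3.92, SE 0.48). Gper1 stood at 33.2, 42.8 and 78.9 CPM in critical, subcritical and uninjured arterial cells and at 8.75, 3.04 and 1.6 CPM in the others. The rest were Tmem178 (3.77), the phosphatase Dusp26 (3.71), the adaptor Apba1 (3.64), the phospholipase Plcg2 (3.43), the sphingolipid enzyme Degs2 (3.42) and Aif1l (3.41). The 10 lowest folds were led by Adm and by Clec3b (-5.03, SE 0.71) and Apod, an apolipoprotein (-3.73, SE 0.35). They included the thrombin receptor F2rl3 (-3.51) and Odc1, the first enzyme of polyamine synthesis (-2.65, SE 0.29). Samd5 (-2.56), Fam102b (-2.56) and Disp1 (-2.54) were also among them. Of 130 named genes, 53 could be tested in all 15 alternatives, and 7 of these passed in each: Dll4, Gja4, Igfbp3, Ltbp4, Slc6a6, Sox17 and Tm4sf1. A further 30 passed in each of the fewer alternatives that tested them, among them Tmem100, Bmx, Efnb2, Jag1, Edn1 and Trpv4. The counts depend on the test: DESeq2 called 140 higher and 49 lower, the fit without the block 88 and 14, the fit without the uninjured library 230 and 177, and the fit over tagged animals 25 and 16 of 1171 genes.

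None of the 138 panel antibodies (0%) differed between arterial and other endothelial cells by the same edgeR test, with 8 at an unadjusted p under 0.05. The smallest adjusted p was 0.276, for Siglec-H, with 2.17, 0.772 and 1.15 counts per cell in critical, subcritical and uninjured arterial cells and 0.588, 0.600 and 0.817 in the others. ESAM, an adhesion molecule of endothelial junctions, had a log2 fold of -0.41 (adjusted p = 0.350) and CD31, the product of Pecam1, -0.20 (adjusted p = 0.677). Without the subcritical library 2 antibodies were higher and 2 lower.

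Between groups, the arterial cells of whole libraries were compared as CPM, with a log2 fold (pseudocount 1 CPM) and a 95% binomial interval of the counts that covers counting error only. There is 1 library a group, so no test was made, and both injured libraries are set against the same uninjured one. Of 7009 genes with at least 20 UMIs over both libraries, 294 (4.19%) were higher by at least 2-fold in the critical than in the uninjured library, and 672 (9.59%) lower. In the subcritical library 242 (3.62%) of 6693 were higher and 1022 (15.3%) lower than in the uninjured one. Between the critical and the subcritical library, 178 (5.43%) of 3281 were higher and 75 (2.29%) lower. The interval lay above 0 for 7.16% of genes and below 0 for 8.4% in critical against uninjured cells, for 5.27% and 6.51% in subcritical against uninjured cells, and for 4.85% and 3.63% in critical against subcritical cells. All-gene medians were -0.07, -0.14 and 0.04.

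Arterial identity genes lay lower in both injured libraries. In critical cells 4 of 39 had an interval above 0 and 24 below (median log2 fold -0.45), and in subcritical cells 1 of 39 above and 18 below (median -0.55). The same genes had medians of -0.25 and -0.30 in other endothelial cells. Gkn3 was among the lowest, at 66.4, 35.7 and 281 CPM in critical, subcritical and uninjured arterial cells (log2 fold -2.06, interval -2.91 to -1.35, and -2.94, interval -4.61 to -1.74). Alpl stood at 149, 221 and 476 CPM (-1.66 and -1.10), and Rbp7 at 365, 350 and 1147 CPM (-1.65 and -1.71). Cytl1, a cytokine-like secreted protein, was at 45.7, 14.3 and 247 CPM (-2.41 and -4.02), the subcritical value resting on 2 UMIs (interval -7.17 to -2.25). Igfbp3 stood at 623, 593 and 1048 CPM (-0.75 and -0.82), and Edn1 at 104, 157 and 266 CPM (-1.35 and -0.76). In each of these genes both injured libraries were under the uninjured one.

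Not every arterial gene did so. Gja4 was at 569, 428 and 349 CPM in critical, subcritical and uninjured arterial cells, with a log2 fold of 0.70 in critical cells (0.41 to 0.99) and 0.29 in subcritical cells (-0.13 to 0.69). Unc5b, a netrin receptor, had a log2 fold of 0.93 in critical cells (0.44 to 1.42) and -0.03 in subcritical cells. Efnb2 had 0.47 in critical cells (0.04 to 0.88) and -0.21 in subcritical cells. Cxcl12, a chemokine of arterial endothelium, stood at 2553, 3549 and 1937 CPM (0.40, interval 0.26 to 0.53, and 0.87, interval 0.73 to 1.02), and at 1387, 1554 and 2217 CPM in other endothelial cells (-0.68 and -0.51). The intervals of Cxcl12 therefore lay on opposite sides of 0 in the arterial and the other cells. Over hashtagged animals (described further on) the arterial response minus that of the other cells was 0.51 on the log2 scale (SE 0.25), which did not pass edgeR's interaction test (adjusted p = 0.750). Leaving out cells that passed on Stmn2 alone gave medians of -0.46 and -0.48 for the list.

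Of 16 Notch pathway genes, 0 had an interval above 0 and 2 below in critical and in subcritical cells alike, with medians of -0.13 and -0.47. The ligand Dll4 was at 249, 328 and 318 CPM in critical, subcritical and uninjured arterial cells, and Notch1 at 241, 200 and 293 CPM, with intervals that held 0. Jag1 was at 74.7, 114 and 128 CPM (critical log2 fold -0.77, -1.58 to -0.06). Hes1 stood at 33.2, 164 and 105 CPM. Its critical value was lower than the uninjured one (log2 fold -1.63, -2.91 to -0.63) and the subcritical one (-2.27, -3.68 to -1.09), on 8 critical UMIs.

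Basement membrane genes lay higher in both injured libraries: 13 of 19 above 0 and 1 below in critical cells (median 1.32), and 11 of 17 above and 1 below in subcritical cells (median 1.09). Col4a1, a main chain of collagen IV, stood at 2458, 2370 and 763 CPM in critical, subcritical and uninjured arterial cells (1.69, interval 1.53 to 1.85, and 1.63, interval 1.44 to 1.83). Sparc, a collagen-binding matrix protein, stood at 5131, 4934 and 1926 CPM (1.41 and 1.36). Col18a1 was at 544, 443 and 76.8 CPM (2.81 and 2.51), and Col15a1, the related collagen XV, at 386, 178 and 22.1 CPM (4.07 and 2.96). Both injured libraries were above the uninjured one in all 4 genes. Fibroblast-gene UMIs moved with this group, with a sum over 10 markers of 3462, 1492 and 60.0 CPM. Without the cells that held at least 5 of them, the fold was 1.66 and 1.64 for Col4a1, 1.29 and 1.29 for Sparc, 2.82 and 2.51 for Col18a1, and 3.94 and 2.95 for Col15a1. Col6a1, a collagen VI chain also made by fibroblasts, had a log2 fold in critical cells of 7.38 with those cells and 3.89 without them. The measured fibroblast genes kept a median log2 fold of 3.24 in critical arterial cells after this removal. Fibroblast transcripts thus remained in the class, and their part in the folds of any of these genes was not tested. In other endothelial cells the medians of the list were 1.02 and 0.77.

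Sprouting and tip genes, which share members with that list, had 8 of 15 above 0 and 0 below in each injured library (medians 1.32 and 1.09). Aplnr stood at 203, 157 and 50.5 CPM in critical, subcritical and uninjured arterial cells (1.99 and 1.62), and at 560, 490 and 241 CPM in other endothelial cells. Plvap, which forms the diaphragms of fenestrae, was at 826, 343 and 323 CPM (1.35, interval 1.09 to 1.62, and 0.09, interval -0.39 to 0.53). Without the cells that passed on Stmn2 alone its log2 fold was 1.75 in critical and 1.02 in subcritical cells. Aplnr stayed lower in arterial than in other endothelial cells in all 3 libraries.

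Capillary and lipid genes lay lower. In critical cells 3 of 20 capillary genes were above 0 and 13 below (median -0.70), and in subcritical cells 1 above and 12 below (median -0.70), against medians of -0.86 and -1.04 in other endothelial cells. Fabp4 stood at 4516, 4548 and 17092 CPM in critical, subcritical and uninjured arterial cells (-1.92, interval -2.01 to -1.83, and -1.91, interval -2.03 to -1.80). Timp4 stood at 125, 150 and 845 CPM (-2.75 and -2.49), and the fatty acid transporter Cd36 at 718, 800 and 1549 CPM (-1.11 and -0.95). Rgcc stood at 307, 535 and 717 CPM (-1.22, interval -1.59 to -0.87, and -0.42, interval -0.78 to -0.07). Car4, a carbonic anhydrase of capillaries, rested on 1 UMI in critical cells (log2 fold -4.67, interval -10.29 to -2.47). Lipid handling genes, which share members with the capillary list, had 2 of 16 above 0 and 6 below in critical cells and 1 of 15 above and 6 below in subcritical cells.

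Flow-responsive genes were also lower. In the list of vascular tone and shear, 1 of 18 was above 0 and 8 below in critical cells, and 0 of 17 above and 7 below in subcritical cells. Klf2 stood at 1025, 1142 and 2162 CPM in critical, subcritical and uninjured arterial cells (-1.08, interval -1.27 to -0.89, and -0.92, interval -1.16 to -0.69), and Klf4 at 212, 250 and 544 CPM (-1.36 and -1.12). Of the VEGF, angiopoietin and TGF-beta list, 2 of 23 were above 0 and 12 below in critical cells, and 1 of 22 above and 10 below in subcritical cells. The BMP targets Id1 (-1.16 and -0.55) and Id3 (-0.94 and -0.63) and the VEGF receptor Flt1 (-0.98 and -0.79) were lower in both. Tmem100, also induced through a BMP receptor, was not lower, at 120, 92.8 and 91.5 CPM. Tgfbr2, a TGF-beta receptor, stood at 274, 221 and 104 CPM (1.39 and 1.08), and Nrp2, a co-receptor of semaphorins and VEGF, at 195, 85.7 and 65.2 CPM (1.57, interval 1.0 to 2.15, and 0.39, interval -0.63 to 1.30).

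**Figure D4:**
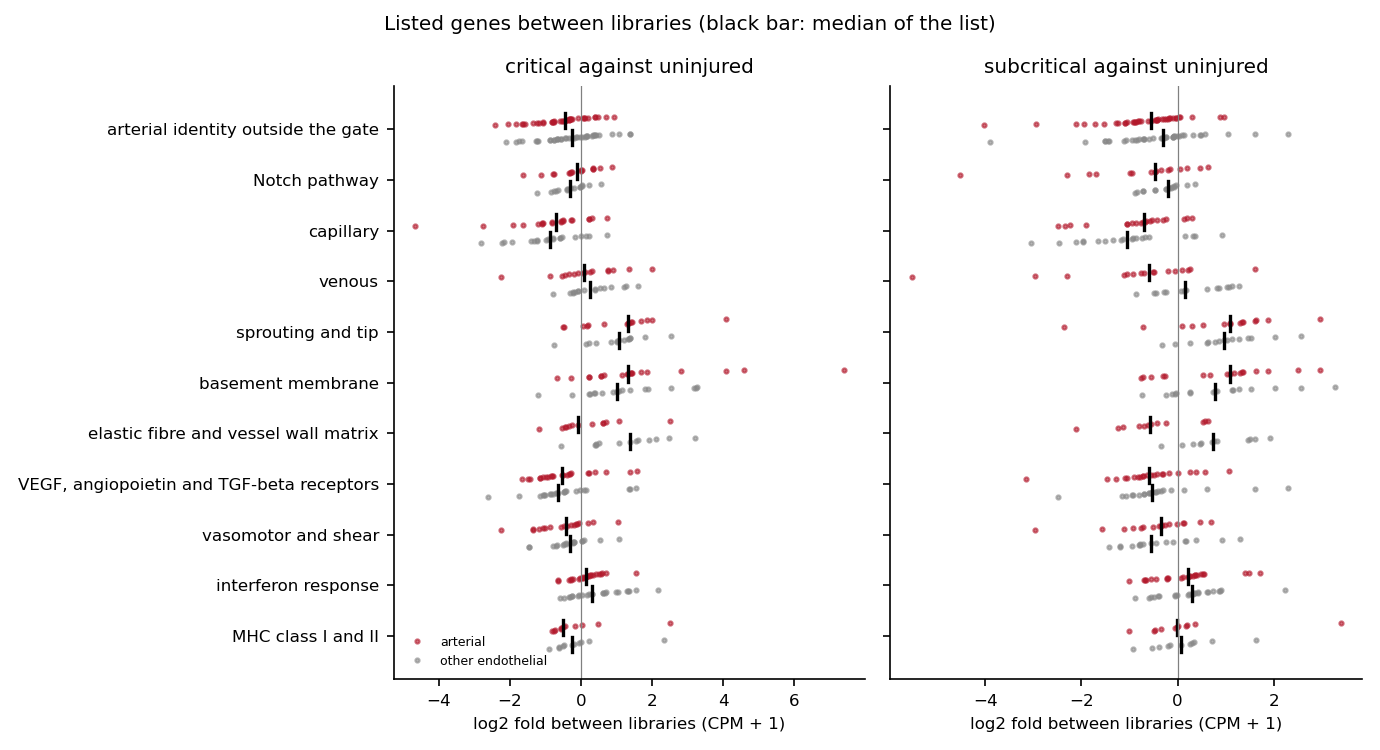
Log2 folds (pseudocount 1 CPM) of the genes of 11 lists, critical against uninjured cells in one panel and subcritical against uninjured cells in the other, with 1 point per gene, red for arterial and grey for other endothelial cells, and a black bar at the median of each list. The medians of basement membrane genes (arterial 1.32 and 1.09) lie above 0 and those of capillary genes (-0.70 and -0.70) below 0 in both classes.

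Elastic fibre and vessel wall genes had medians of different sign in the 2 classes. In arterial cells 5 of 13 lay above 0 and 5 below in the critical library (median -0.08), and 1 of 12 above and 7 below in the subcritical library (median -0.58), against medians of 1.37 and 0.74 in other endothelial cells. Mgp, an inhibitor of calcification and of BMP signalling, stood at 511, 271 and 1172 CPM in critical, subcritical and uninjured arterial cells (-1.20, interval -1.48 to -0.93, and -2.11, interval -2.62 to -1.65). In other endothelial cells it stood at 573, 290 and 273 CPM (1.07 and 0.08). Eln, which encodes elastin, stood at 249, 143 and 341 CPM in arterial cells (-0.45 and -1.25) and at 197, 173 and 139 CPM in the others (0.50 and 0.32). Fbln5 stood at 585, 400 and 703 CPM in arterial cells (-0.26 and -0.81) and at 73.3, 86.5 and 27.8 CPM in the others (1.37 and 1.61). In these 3 genes the ratio of arterial to other cells was therefore smaller in the injured libraries. Among tagged animals the sign for Eln was the opposite. Over hashtagged animals, where critical and uninjured cells could be tested, the arterial response minus that of other cells was -0.28 for Mgp (SE 0.77, adjusted p = 0.988), 2.52 for Eln (SE 1.06, adjusted p = 0.633) and -1.496 for Fbln5 (SE 1.15, adjusted p = 0.870) by edgeR's interaction test, and none passed. Fibroblast-gene UMIs moved in both classes, with 5 of 5 measured fibroblast genes higher in critical arterial cells (median 6.11, and 3.24 without the fibroblast-positive cells) and a median of 3.90 in other endothelial cells; their part in the result was not tested.

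Immune-related lists showed smaller shifts. Interferon response genes had 5 of 24 above 0 and 2 below in critical cells and 6 above and 0 below in subcritical cells, with medians of 0.15 and 0.22. Rsad2, an antiviral enzyme, stood at 158, 178 and 53.7 CPM in critical, subcritical and uninjured arterial cells (1.54 and 1.72), and Ifi27l2a at 452, 743 and 280 CPM (0.69 and 1.4). Of 11 antigen presentation genes, 1 was above 0 and 7 below in critical cells and 2 above and 2 below in subcritical cells. The class I gene H2-D1 stood at 2100, 3006 and 3105 CPM (critical -0.56, interval -0.70 to -0.43). Cd74, the class II invariant chain, stood at 87.2, 164 and 14.7 CPM (2.49 and 3.39), in 18, 14 and 6 cells, and its subcritical log2 fold was 5.65 without the cells that passed on Stmn2 alone. Lyz2, a gene of myeloid cells, was also higher, at 220, 236 and 21.0 CPM. The summed markers of macrophages and other immune cells came to 320, 386 and 233 CPM, with Cd3e at 0 in all 3 libraries. The uninjured sum was mostly the neutrophil genes S100a8 and S100a9, which were at 0 in both injured libraries; without them the sums were 320, 386 and 42.1 CPM. These immune transcripts moved with Cd74, and their part was not tested. Of 18 immediate early and dissociation genes, 9 were below 0 and 0 above in critical cells and 3 below and 0 above in subcritical cells. Hypoxia and glycolysis had 4 of 15 above 0 and 1 below in critical cells (Gapdh 1.02, Pgk1 1.09), and proliferation 2 of 9 above.

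The genes with the extreme folds were few in cells. The highest in critical against uninjured cells were Tnc, Col6a1, Thbs4, Col1a1, Col1a2, Prnd, Col3a1, Col12a1, Mest and Igf1. For Tnc, an injury-induced matrix protein, 35 of 42 critical UMIs came from 1 cell and the uninjured library had none, so the level was at least 55.2-fold higher against 3 counts in that library. For Col1a1 187 of 384 UMIs came from 1 cell. Prnd, a prion-like protein of sprouting endothelium, had 22 UMIs over 11 critical cells and 0 in uninjured cells, at least 28.9-fold higher. Mest, an imprinted gene of the hydrolase family, stood at 295, 200 and 7.37 CPM in critical, subcritical and uninjured arterial cells (5.14, interval 4.21 to 6.69, and 4.59, interval 3.53 to 6.20), in 23, 13 and 6 cells. Mest and Prnd thus did not rest on 1 cell, whereas Tnc did.

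The highest in subcritical cells were Col3a1, Col1a2, Col1a1, Mest, Lyz2, Cd74, Col15a1, Lgals1 (2.65), Mmp14 (2.63) and Col18a1. For the first 3 of these, 1 cell held 36 of 60, 32 of 47 and 59 of 82 subcritical UMIs. Without the cells that passed on Stmn2 alone the log2 fold was 4.16 for Col3a1, 2.98 for Col1a2 and 3.54 for Col1a1, against 5.51, 5.33 and 5.13 with them. The lowest in critical cells were S100a9, Camp, Ngp, Arnt, Stc1, Trim65, Cdh23, Pigc, S100a8 and Npr3, all at 0 UMIs there. S100a9, a protein of neutrophils, had 156 UMIs in uninjured arterial cells, 114 of them in 1 cell, and was at least 13.2-fold lower in critical cells. The others were at least 2.03-fold to 4.73-fold lower. Npr3, the clearance receptor of natriuretic peptides, had 24 UMIs in 21 uninjured cells. The lowest in subcritical cells were S100a9, Nod1, Ngp, Prkar2a, Ackr1, Pin4, Prkd3, Cnot2, Pdcd7 and Serpinb9, all at 0 UMIs there and at least 1.96-fold to 7.66-fold lower.

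Critical and subcritical arterial cells were compared over fewer UMIs and genes. Of 33 arterial identity genes 5 were above 0 and 2 below, of 11 venous genes 3 above and 0 below, and of 11 elastic fibre genes 5 above and 0 below (median 0.53, and 0.19 without the fibroblast-positive cells). Basement membrane genes had 3 of 18 above and 0 below, and antigen presentation genes 0 of 11 above and 5 below (median -0.34). Mgp stood at 511 CPM in critical and 271 CPM in subcritical arterial cells (0.91, interval 0.38 to 1.48), and Plvap at 826 and 343 CPM (1.27, interval 0.81 to 1.76). Rgs5, a pericyte gene, stood at 822 and 157 CPM, and the summed mural markers at 2038 and 1185 CPM. The highest folds were those of Ecrg4, Tnc, Thbs4, Abi3bp, Col12a1, Ate1, Rab13, Cmc1, Hipk3 and Dpysl2. Of the critical UMIs, 1 cell held 16 of 20 for Ecrg4, 35 of 42 for Tnc, 137 of 187 for Thbs4 and 50 of 82 for Abi3bp. The lowest folds were those of Ubxn2a, Hes1, Anapc13, Bola2, Abl2, Eps8l2, Chmp5, 1110038F14Rik, Cnot4 and Inka1. Without the fibroblast-positive cells Thbs4 (-0.66) and Abi3bp (-1.18) turned to lower in critical cells.

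Arterial cells with a hashtag call differed in level from those without one. The uninjured library had 66 tagged arterial cells (median 2932.5 UMIs) and 270 without a call (2295.5 UMIs), against 18 (2364) and 99 (1353) in the critical library and 11 (1773) and 81 (1169) in the subcritical library. In uninjured arterial cells Mgp stood at 38.1 CPM with a call and at 1547 CPM without, Cytl1 at 4.21 and 328 CPM, Gkn3 at 38.1 and 361 CPM, Eln at 80.5 and 427 CPM, and Gja5 at 97.5 and 288 CPM. The capillary genes Car4 (288 and 78.4 CPM) and Aqp1 (1857 and 627 CPM) were higher in those with a call. In critical cells Mgp was at 244 CPM with a call and at 594 CPM without, Gkn3 at 0 and 87.2 CPM, and Gja5 at 174 and 207 CPM. Tagged arterial cells thus had less of the arterial wall genes, most clearly in the uninjured library, and the tests over animals hold for these cells. For Mgp the direction turned: it stood at 432 and 77.3 CPM in critical animals and at 25.1, 116 and 16.1 CPM in uninjured animals (log2 fold 2.42, SE 1.13, adjusted p = 0.202 by edgeR), against -1.20 over whole libraries. Fabp4, in contrast, was at 4453 and 4536 CPM in critical cells with and without a call and at 22173 and 15414 CPM in uninjured cells, so that its difference stood in both.

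Animals gave a test of critical against uninjured cells. Tagged arterial cells were summed in animals with at least 5, which left 2 critical animals (6 and 11 cells) and 3 uninjured animals (37, 10 and 16 cells), with 1 subcritical animal in the fit. By edgeR's quasi-likelihood test over 1033 genes, 29 were higher (2.81%) and 42 lower (4.07%), 6.87% in either direction, at an adjusted p under 0.05, with 220 at an unadjusted p under 0.05. All 71 had the sign of the whole-library fold, which holds the same cells. Of 17 capillary genes 9 fell and none rose, and of 9 lipid handling genes 5 fell. The lists share members: Cd36, Fabp4, Gpihbp1 and Tcf15 count in both, and Apoe in lipid handling alone. Fabp4 stood at 3348 and 5374 CPM in the critical animals and at 20217, 20243 and 23914 CPM in the uninjured animals (log2 fold -2.35, SE 0.28, adjusted p = 2e-07). Timp4 stood at 72.0 and 38.7 CPM in critical animals and at 1273, 905 and 2075 CPM in uninjured animals (-4.66, SE 0.58, adjusted p = 2.44e-06). Rgcc stood at 108 and 232 CPM in critical animals and at 855, 1045 and 1110 CPM in uninjured animals (-2.59, SE 0.44, adjusted p = 0.000108). In all 3 genes the groups did not overlap, which also held for 406 of the 1033 genes tested. Cd36 (-1.5), Tcf15 (-1.48), Cd300lg (-2.13), Car4 (-3.70), Aqp7 (-1.84) and Gpihbp1 (-0.99) fell as well.

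Of 20 genes of the arterial identity list tested over animals, 3 fell and none rose, 1 of them Aqp1, which was lower in arterial than in other endothelial cells. Igfbp3 stood at 396 and 271 CPM in critical animals and at 1449, 604 and 772 CPM in uninjured animals (-1.58, SE 0.43, adjusted p = 0.0206). Rbp7 stood at 216 and 387 CPM in critical animals and at 1416, 696 and 1383 CPM in uninjured animals (-2.03, SE 0.42, adjusted p = 0.00148), and Aqp1 fell by 1.84 on the log2 scale. None of 4 Notch genes passed the test. Of 9 genes of vascular tone and shear, Klf2 (-1.16, SE 0.30) and the caveolar protein Cavin2 (-0.96, SE 0.30) fell, and of 11 VEGF and TGF-beta genes Flt1 (-1.34), Id1 (-1.17) and Id3 (-1.35). Dusp1, a phosphatase, was the 1 immediate early gene of 11 that fell (-1.5).

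Of 11 basement membrane genes, 7 passed as higher and none as lower, against 2.81% and 4.07% of all 1033 genes tested. The 7 include Col6a1 and Col6a2. Col6a1 had 16 UMIs in critical animal 2 and 0 in critical animal 4, so its entry to the test and its call rest on 1 animal. Sparc stood at 7885 and 5258 CPM in critical animals and at 2069, 3204 and 2798 CPM in uninjured animals (log2 fold 1.27, SE 0.25, adjusted p = 0.000777). Col18a1 stood at 936 and 232 CPM in critical animals and at 41.9, 46.4 and 32.2 CPM in uninjured animals (3.77, SE 0.65, adjusted p = 0.000108). Col15a1 stood at 180 and 812 CPM in critical animals and at 25.1, 92.9 and 0 CPM in uninjured animals (3.76, SE 0.83, adjusted p = 0.00499). The groups did not overlap in Sparc, Col18a1 and Col15a1, nor in 406 of all 1033 genes tested. Col4a1 (1.26, SE 0.28) and Vwa1 (1.89, SE 0.54) rose too, and with Sparc and Col15a1 made the 4 of 8 sprouting genes that rose. Col6a1 stood at 576 and 0 CPM in critical animals and at 0 CPM in each uninjured animal, Col6a2 at 648 and 116 CPM in critical animals and at 8.38, 0 and 0 CPM in uninjured animals, and Igf1, a growth factor, at 900 and 116 CPM in critical animals and at 0 CPM in each uninjured animal. The high values of these genes came mostly from 1 critical animal, in which Col1a1 stood at 6805 CPM, against 116 CPM in the other.

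**Figure D5:**
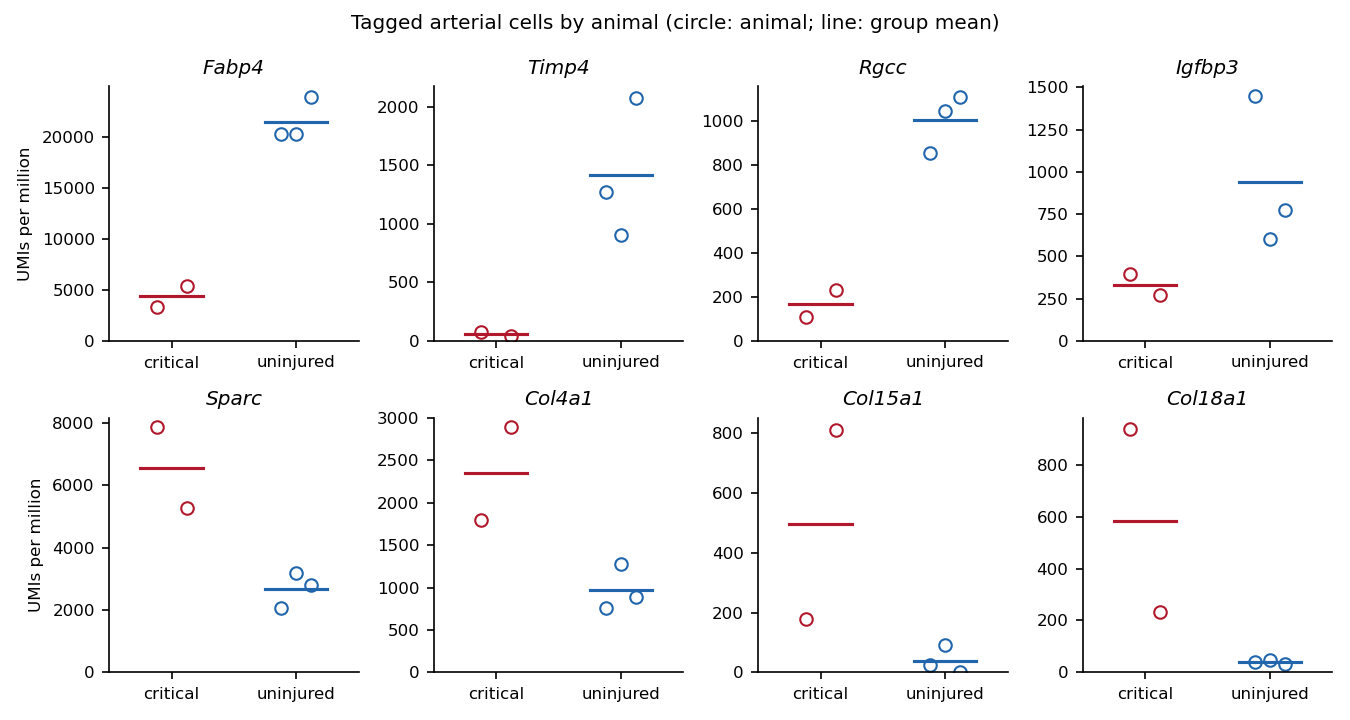
Levels of 8 called genes (CPM, linear axis from 0) in each animal with at least 5 tagged arterial cells, 2 critical animals on the left and 3 uninjured animals on the right, with a line at the group mean. Fabp4, Timp4, Rgcc and Igfbp3 are lower and Sparc, Col4a1, Col15a1 and Col18a1 higher in both critical animals than in the 3 uninjured ones. Over all 1033 genes tested, 406 showed no overlap between these groups.

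Prnp, the prion protein, rose to 1008 and 696 CPM in critical animals, against 218, 139 and 129 CPM in uninjured animals (log2 fold 2.27, SE 0.39, adjusted p = 0.000108). Of the called genes 8 were ribosomal, 3 higher and 5 lower, and 2 were mitochondrial and higher. How many genes of either kind were tested is not given here. These counts therefore cannot be set against the 6.87% called over all 1033 genes. Mitochondrial genes took 0.397%, 0.207% and 0.189% of UMIs in critical, subcritical and uninjured arterial cells. Of the 71 genes, 53 could be tested in all 11 alternatives, and 8 of these passed in each: Fabp4, Gstm1, Prnp, Rgcc, Rps25, Rps27, Serinc3 and Timp4. Col18a1 passed in the 8 that tested it. Without the cells that passed on Stmn2 alone 15 of 58 called genes lost the call by edgeR, among them Sparc (log2 fold 0.85, adjusted p = 0.0681), Id1 (adjusted p = 0.1), Vwa1 (adjusted p = 0.0778), Gpihbp1 (adjusted p = 0.0567) and Aqp7 (adjusted p = 0.0547). Of the called genes that could be tested again, 45 of 66 lost the call without critical animal 2 and 47 of 67 without uninjured animal 4, and Sparc, Rbp7, Flt1, Id1, Tcf15 and Cd300lg did so in both. Col4a1 and Col15a1 lost it without critical animal 4 or uninjured animal 4, and Igfbp3 without either of these or uninjured animal 2. Single animals moved the counts: without uninjured animal 4 there were 6 higher and 14 lower genes, without critical animal 2 there were 12 and 16, and without critical animal 4 there were 56 and 39. DESeq2 called 15 higher and 26 lower.

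The response to critical injury was compared between arterial and other endothelial cells of the same animals by an interaction term with the animal as block. Of 2524 genes, 6 passed (0.238%), 2 with a more positive (0.0792%) and 4 with a more negative response in arterial cells (0.158%). Timp4, Rgcc, Rbp7 and the transcript AY036118 had the more negative response. Timp4 in other endothelial cells stood at 744 and 611 CPM in critical animals and at 2013, 1535 and 2494 CPM in uninjured animals. Rbp7 in other endothelial cells stood at 97.9 and 213 CPM in critical animals and at 146, 75.3 and 72.6 CPM in uninjured animals. Acta2, the actin of smooth muscle, and Col1a1 had the more positive response, but their arterial levels differed widely between the 2 critical animals. Arterial Acta2 stood at 36.0 and 580 CPM in critical animals and at 117, 0 and 48.2 CPM in uninjured animals. In other endothelial cells it stood at 39.2 and 213 CPM and at 344, 573 and 252 CPM. Arterial Col1a1 stood at 6805 and 116 CPM in critical animals, against 2468 and 284 CPM in other endothelial cells. Over whole libraries, however, Timp4 had folds of -2.75 in arterial and -2.80 in other endothelial cells. Without the animal block no gene passed.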

How the data were processed

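For each group the authors deposited 1 matrix of raw UMI counts, which cellranger 6.0.2 wrote, per the file headers. Each held 32285 genes, 4 hashtags and 138 panel antibodies, and bcl2fastq, Cell Ranger and the genome build GRCm39 (mm39) are named in the submitters' processing notes. No further normalization is given in the sources used here. Per the labels' protocols, collagenase II with dispase II freed the cells, red cells were lysed, and the cells were run on the 10x 5' v2 assay.

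Gates on UMI counts chose the cells. Hashtags were called per library with a negative binomial mixture (posterior at least 0.9). No doublet caller was run; cells with several hashtags, mural transcripts (at least 2 UMIs) or fibroblast transcripts (at least 5 UMIs) were left out in alternatives. Sums per class and library or animal were tested with edgeR 4.0.16 (TMM, filterByExpr, robust quasi-likelihood) in R 4.3.3, with DESeq2 1.42.0 as alternative. The pairing of the classes by library or animal comes from the design, since both come from the same pool or animal. Shares used exact permutation tests and Clopper-Pearson intervals in Python 3.11.15 with scipy 1.17.1. Library folds have no test.

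The animal fit was to use at least 10 arterial cells per animal, which left no pair of groups with 2 animals each, so the fit with at least 5 cells is reported. The labels do not say that animals of a group came from separate litters or days. On simulated counts, the test of arterial against other cells recovered 28.4% of 2-fold and 84.7% of 4-fold changes, with 2 false calls among 7937 genes, and the animal test 31.7% and 82.9%, with 1 among 1005. These counts were drawn with the same spread for every gene. Apart from the changes put in, libraries and animals differed in depth only. The simulation therefore does not give the error rate of the real sums.

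Named genes were the gate genes, the 15 highest and 10 lowest called folds of arterial over other cells with the same direction in all 3 libraries and at least 30 UMIs, the 10 highest and 10 lowest library folds of each comparison (at least 20 UMIs, at least 5 positive cells in the higher library, interval without 0), and members of the 23 lists. A gene that this rule named is not reported here. The members and lists were chosen with earlier results of these data known. Lists not described between groups had few measured members: in critical against uninjured cells, mural genes had 4 of 8 above 0 and 0 below, macrophage and other immune genes 1 of 3 above and 2 below, lymphatic genes 0 of 4 above and 1 below, glial genes 1 of 1 above, muscle genes 0 of 2 either way, leukocyte recruitment 1 of 10 each way, and red blood cell genes none measured.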

Additional observations from a re-analysis of the deposited data

Results flagged for a closer look

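The response to critical injury (critical over uninjured, log2) differed between arterial and other endothelial cells for 6 of 2524 genes by edgeR's interaction test with the animal as block. In 2 critical and 3 uninjured animals, the arterial response minus that of other endothelial cells was -1.58 for AY036118 (SE 0.28, adjusted p = 0.00235), -3.09 for Timp4 (SE 0.62, adjusted p = 0.0129), -2.27 for Rgcc (SE 0.48, adjusted p = 0.0207) and -2.66 for Rbp7 (SE 0.57, adjusted p = 0.0207). It was 3.49 for Acta2 (SE 0.78, adjusted p = 0.043) and 3.81 for Col1a1 (SE 0.85, adjusted p = 0.043).

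Over all cells of a library the log2 folds of arterial and other endothelial cells were -0.13 and 0.31 for AY036118, -2.75 and -2.80 for Timp4, -1.22 and -0.60 for Rgcc, and -1.65 and -0.35 for Rbp7. They were 0.89 and -1.76 for Acta2 and 6.57 and 4.09 for Col1a1. Acta2 and Col1a1 are markers of mural cells and fibroblasts. In the 2 critical animals, with 6 and 11 arterial cells, arterial Acta2 stood at 36.0 and 580 CPM and Col1a1 at 6805 and 116 CPM. Of the 384 arterial Col1a1 UMIs of the whole critical library, 187 came from 1 cell. The part that transcripts of mural cells and fibroblasts played was not tested.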

How the results depend on the processing

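Shares of arterial cells moved with the gate. In the critical, subcritical and uninjured libraries they were 11.8%, 10.1% and 19.98% with at least 3 arterial UMIs, 8.64%, 5.64% and 17.1% with Stmn2 left out of the gate, and 13.0%, 10.5% and 21.9% without cells that passed on Stmn2 alone (chosen after seeing the data). With at least 1000 UMIs a cell they were 21.9% (critical) and 29.0% (uninjured), and thinned 12.3% (subcritical) and 19.0% (uninjured). In all of these the uninjured library stayed highest. Over animals, the difference of critical minus uninjured ran from 0.185 (at least 3 arterial UMIs) to 11.4 percentage points (at least 1000 UMIs), and that of subcritical minus uninjured ran from -8.95 to 0.14 percentage points when 1 animal was left out, the last without subcritical animal 4; leaving a group with 1 animal gave no test.

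For arterial against other endothelial cells, DESeq2 called 140 higher and 49 lower genes (185 of the 610 shared), the fit with no replicate block, which ignores the pairing by library, 88 and 14 (100 shared), and tagged animals 25 and 16. Leaving out 1 library gave 230 to 349 higher and 177 to 242 lower. For antibodies it gave 0 to 2 higher and 0 to 2 lower. Leaving out fibroblast-positive cells turned Postn (0.21) and Col6a2 (0.28) to higher in arterial cells, and Thbs4 (-0.66) and Abi3bp (-1.18) to lower in critical against subcritical cells. Ccl21a turned to lower with at least 3 arterial UMIs (-0.29) or without Stmn2 in the gate (-8.12), and Hmgb2 (0.13), Cd300lg (0.0022) and Il6st (0.10) to higher over animals. Of the other values of single genes, 1525 kept their side of the threshold and 306 lost it.

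For critical against uninjured animals, DESeq2 called 15 higher and 26 lower, and hashtags by a 70% share 61 and 65. Leaving out 1 animal gave 6 to 56 higher and 14 to 47 lower; where that left 1 critical animal, it was assumed to vary like the other groups. For the interaction, the fit with no replicate block called 0 higher and 0 lower, with 165 at an unadjusted p under 0.05.

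Counts of library folds of at least 2-fold fell with a pseudocount of 10 CPM to 162 higher and 360 lower (critical over uninjured), 138 and 622 (subcritical over uninjured) and 48 lower (critical over subcritical). With at least 50 UMIs they were 96 and 249, 79 and 363, and 28 and 9. The causes were not tested. Depth limits the subcritical library most, with 140057 arterial UMIs, and genes under about 20 UMIs could not be compared.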
